A study of Mus musculus with 7 samples.

Results

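The clustered protocadherins are cell surface proteins of the cadherin superfamily whose genes lie in a row on mouse chromosome 18. They were taken as the genes of the count table on that chromosome whose symbol is Pcdha, Pcdhb, Pcdhga, Pcdhgb, Pcdhac or Pcdhgc followed by a number, which gave 58 of 50600 genes. The alpha cluster held 14 members, the beta cluster 22 and the gamma cluster 22. Of these, 5 are the so-called C-type genes, namely Pcdhac1 and Pcdhac2 at the end of the alpha cluster and Pcdhgc3, Pcdhgc4 and Pcdhgc5 at the end of the gamma cluster. The other alpha members, 12 in number, are called Pcdha1 to Pcdha12 below, and the other gamma members are 12 Pcdhga and 7 Pcdhgb genes. All 58 lie on the plus strand between 36930184 and 37841873 on GRCm38, a stretch of 911.7 kb.

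RNA was taken from whole olfactory epithelium, the odour-sensing layer of the nasal cavity, at postnatal day 7. Mice of 3 genotypes were sequenced after poly(A) capture. The neo mice (Amigo1neo/neo) carry a neomycin selection cassette in place of the coding region of Amigo1, a gene for a leucine-rich repeat adhesion protein, and gave 3 libraries. The KO mice (Amigo1-/-) gave 3 libraries, and a WT mouse (Amigo1+/+) gave 1, so WT values have no replicate. The labels do not say how the KO allele was made or whether any animals were pooled. The neo and KO groups both lack Amigo1. Sample names carry a date-like code and a prefix that the WT and KO libraries share and the neo libraries do not. The labels do not explain either code, so neo cannot be told apart from whatever the codes stand for. The labels do not state that each replicate is its own mouse, and the spread behind a p-value may therefore be technical, though not wholly so in neo. The Y-linked gene Ddx3y had 0 counts in neo replicate 1 and 1161 and 1272 in neo replicates 2 and 3. These 3 libraries thus do not all come from the same animal.

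Each protocadherin of the alpha and gamma clusters is made from a large first exon with a promoter of its own, which is spliced to short constant exons shared by the whole cluster, while a beta gene is a single exon. Single neurons switch on a small and partly random subset of the promoters, through CTCF, cohesin and distant enhancers, whereas C-type promoters are used in a more regular way. The proteins bind their own kind between membranes and let a neuron tell its own branches from those of others. Mouse olfactory sensory neurons need them to sort their axons into glomeruli in the olfactory bulb.

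Amigo1 had 11, 5 and 1 counts in neo replicates 1 to 3 and 0, 8 and 16 counts in KO replicates 1 to 3, against 744 in WT. Gene counts totalled 14879415 to 21343058 per library, of which the members took 5298 to 8643. Omp, the marker of mature olfactory neurons, stood at 784 to 1163 CPM (counts scaled to a library size adjusted by edgeR's TMM method) in every library. Neo replicate 1 stood apart. It had 1145 CPM of Xist and 0 CPM of the Y-linked gene Ddx3y. WT was also Xist-positive, at 644 CPM, while in neo replicates 2 and 3 and in KO the Xist level did not exceed 4.18 CPM. Neo replicate 1 also had 1062 summed CPM of 6 skeletal muscle markers, against 4.12 to 19.6 in the other libraries. Named log2 differences of neo minus KO that change sign without neo replicate 1 are given with and without it.

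Levels of different members were compared as CPM per kilobase of exon that no other gene holds on the same strand, because a read in a shared constant exon cannot be given to 1 gene. For beta genes this covers nearly the whole transcript, and for most alpha and gamma genes the first exon. A level could be given for 57 members. The exception was Pcdha4, whose first exon is also annotated for the readthrough gene Gm42416. Pcdha4 had 1 count in neo replicate 1 and 0 in every other library, and Gm42416 was at 0 in all 7, whereas the deposited TPM (a depth- and length-scaled abundance) of Pcdha4 ran from 2.33 to 6.73. The count of Pcdha4 is therefore not a measure of its level. The table held 2 entries named Pcdha11, starting at 37005203 and at 37010712, which are called the upstream and the downstream entry here. RefSeq, on the same build, names the gene at the upstream entry Pcdha10, so the pair may be different genes.

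A few members stood far above all others, and they were the same ones in every library. The highest was Pcdhb1, the first gene of the beta cluster. It stood at 22.4, 24.8 and 23.3 CPM per kb in neo replicates 1 to 3, at 25.9, 21.5 and 16.6 in KO replicates 1 to 3 and at 23.0 in WT. Next came the C-type gene Pcdhgc3, whose protein also acts in Wnt signalling through Axin1. It stood at 16.5, 16.3 and 20.6 CPM per kb in neo, at 17.9, 18.3 and 16.8 in KO and at 14.6 in WT. Pcdhb1 lay above Pcdhgc3 in 6 of 7 libraries, KO replicate 3 being the exception, so this pair is not ordered beyond the spread. The C-type gene Pcdhac2, which serotonergic neurons need to space out their axons, came next, at 7.15, 5.96 and 7.05 CPM per kb in neo, 6.66, 6.96 and 5.95 in KO and 7.28 in WT. Pcdhb9 followed, with 3.75 to 4.76 CPM per kb over the 7 libraries. Pcdhgc3, Pcdhac2 and Pcdhb9 were each separated from the next gene in the order by ranges that did not overlap.

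Below these 4 genes the levels fell off gradually over most of the order. Pcdhgb6 (mean of 7 libraries 2.90 CPM per kb), Pcdhb17 (2.88) and Pcdhga11 (2.79) came first, and of the Pcdhga genes Pcdhga7 (2.36) and Pcdhga6 (2.13) came after Pcdhga11. Among the other alpha genes Pcdha2 (1.86), Pcdha3 (1.67) and Pcdha9 (1.66) were highest, and among the other Pcdhgb genes Pcdhgb7 (1.89) and Pcdhgb1 (1.64). Neighbours in the order had overlapping ranges except at its low end, where Pcdhb2 lay above Pcdhgc5 without overlap, and genes changed places between libraries. Pcdha2, for example, ranked between 7 and 24 of 57. At the low end were Pcdhga12 (0.497), Pcdhga9 (0.493), Pcdhb8 (0.427), Pcdhgb8 (0.251) and Pcdhb2 (0.215). The downstream Pcdha11 entry stood at 0.516 and Pcdhgb5 at 0.716, but a level per kb depends on the length used. The downstream entry was divided by 4606 bases, while its first exon has 2500. By mean TPM it stood at 2.03, above the upstream entry at 1.68, and Pcdhgb5 stood at 1.80. Pcdha8 was the lowest member that could be read. It had 2, 0 and 1 counts in neo, 2, 6 and 1 in KO and 4 in WT, where the 0 allows up to 3 counts, and at most 0.18 TPM. The ranking of all 57 genes was alike in every pair of libraries, with Spearman rho of 0.911 to 0.961 over 21 pairs, given as a description across genes.

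**Figure D1:**
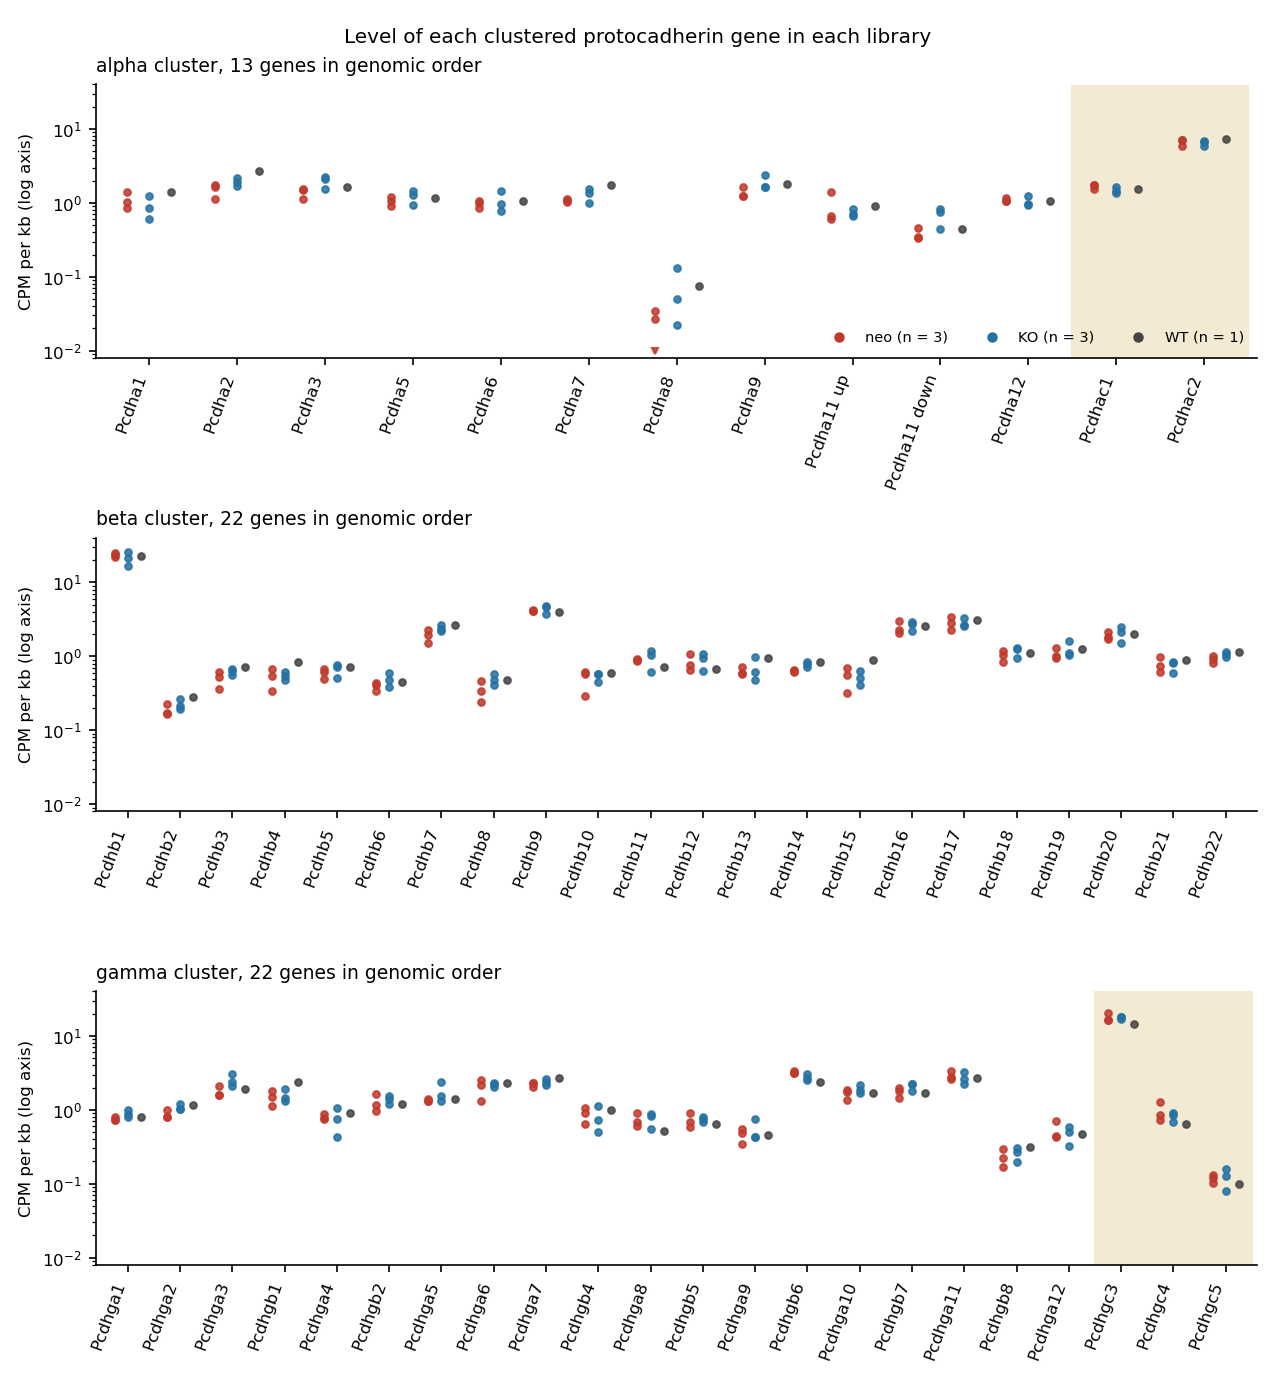
Level of 57 members in each library, in CPM per kb of exon held by 1 gene on a log axis, with 1 panel per cluster and genes in genomic order. Points are single libraries of neo, KO and WT, shading marks the C-type genes, and a triangle marks a value of 0. Pcdhb1, Pcdhgc3 and Pcdhac2 lie above all other members, while Pcdha8 and Pcdhgc5 lie lowest.

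The C-type genes did not share a level. Pcdhgc3 had 17.8 ± 2.88 times the median of the members that are neither C-type nor Pcdhb1, and Pcdhac2 had 6.87 ± 0.575 times that median (SD over 7 libraries). Pcdhac1 had 1.62 ± 0.259 times it, with 1.34 to 1.73 CPM per kb. Pcdhgc4, which mouse interneurons need to survive, had 0.876 ± 0.263 times it. It stood at 0.723, 0.843 and 1.26 CPM per kb in neo, at 0.916, 0.864 and 0.684 in KO and at 0.635 in WT. Pcdhgc5, whose expression in the mouse brain comes late, had 0.121 ± 0.0330 times the median, with 6 to 13 counts per library. Members of the C-type group thus stood at both ends of the order. The median of the C-type genes was 1.58 ± 0.245 times that of the other 52 genes (SD over 7 libraries) and higher in 7 of 7 libraries. This median is the level of Pcdhac1, the middle gene in every library, and does not describe the C-type genes as a class. The ratio was 1.22 ± 0.203 without Pcdhgc3.

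Among the remaining sets, alpha, Pcdhga and Pcdhgb genes had higher medians than beta genes in 7 of 7 libraries. The ratio to the beta median was 1.32 ± 0.149 for Pcdha1 to Pcdha12, 1.49 ± 0.163 for Pcdhga and 1.53 ± 0.199 for Pcdhgb (SD over 7 libraries). Pcdhga and Pcdhgb could not be ordered, since Pcdhga was higher in 4 of 7 libraries. Reads that also match another copy were left out of gene counts, and the sets are not equally exposed to this. Of all 50-base stretches of the first exon, 10.2 to 26.6% occur elsewhere in annotated transcripts for Pcdha1 to Pcdha12 and 2.67 to 17.9% for Pcdhgb. The share was at most 12% for Pcdhb and 4.25% for Pcdhga. For the C-type genes, Pcdhb1, Pcdhga1, Pcdhga7, Pcdhga11 and Pcdhga12 it was 0%, so their first exons are least exposed to this loss. This does not extend to shared exons, and the level of Pcdhgc4 differed between measures, as given below. How far lost reads lower the others was not tested. The lengths are also unlike. A beta gene was divided by nearly its whole transcript, up to 8695 bases for Pcdhb14, and most alpha and gamma genes by the first exon. What this does to the ratios between sets was not tested.

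Position within a cluster and level were related differently in each set. In the beta cluster without Pcdhb1, Spearman rho between order along the chromosome and level was 0.401 to 0.599 in single libraries (21 genes), with higher levels towards the gamma side, and 0.219 to 0.390 with Pcdhb1 (22 genes). In the alpha set it was -0.509 to -0.300 (11 genes). For Pcdhga it was -0.140 to 0.056 (12 genes) and for Pcdhgb -0.321 to -0.071 (7 genes). These are descriptions across genes of the same libraries, and neighbouring genes are not independent.

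The deposited TPM values, in which RSEM divided reads of shared exons among genes by an estimate, gave a similar order. Across the 57 genes the rank correlation of mean TPM with mean CPM per kb was 0.930. By mean TPM, Pcdhgc3 ranked 1 and Pcdhb1 ranked 2. The ratio of mean TPM to mean CPM per kb was 1.75 to 3.93 for Pcdha1 to Pcdha12 without Pcdha4. For Pcdhb it was 1.37 to 1.81 and for Pcdhga 1.35 to 2.03. Alpha genes thus stood higher against Pcdhb genes on TPM than on CPM per kb. The largest shift in rank was that of Pcdhgc4, which ranked 34 by CPM per kb and 3 of 58 by TPM. Its TPM was 5.71, 20.69 and 22.86 in neo replicates 1 to 3, 13.45, 11.8 and 21.68 in KO replicates 1 to 3 and 16.02 in WT. A single transcript (ENSMUST00000195239.1), which joins a short piece of the Pcdhgc4 first exon to the exons shared by the gamma cluster, made up 75.3 to 94.9% of this. The transcript that holds the whole coding first exon of Pcdhgc4 (ENSMUST00000066140.12) had 0.47 to 1.1 TPM. Most of the TPM of Pcdhgc4 was thus assigned to a transcript that consists largely of shared exons. With TPM in place of CPM per kb, the C-type median was 6.34 ± 1.92 times that of the others, and the middle gene was no longer Pcdhac1.

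**Figure D2:**
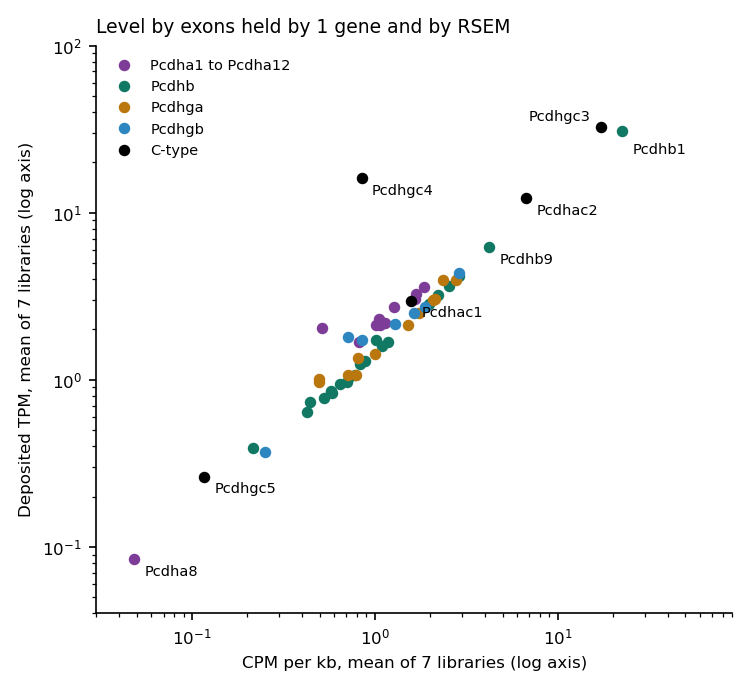
Mean deposited TPM of each member against its mean CPM per kb over 7 libraries, both on log axes. Points are 57 genes coloured by set, and Pcdhgc4, at 0.847 CPM per kb and 16.0 TPM, lies furthest above the line formed by most others.

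The neo and KO groups were compared to ask whether the cassette allele differs from the knockout. The summed level of Pcdha1 to Pcdha12 was 27.1 ± 3.29 CPM in neo and 32.3 ± 3.94 CPM in KO (SD, n = 3 each), against 34.8 CPM in WT. The beta cluster stood at 161 ± 10.1 CPM in neo, 166 ± 22.1 CPM in KO and 175 CPM in WT, and Pcdhb1 alone made up 33.6 to 42.2% of its counts in neo and 30.0 to 35.9% in KO. Pcdhga genes summed to 43.8 ± 4.51 CPM in neo, 48.8 ± 5.58 CPM in KO and 46.3 CPM in WT. Pcdhgb genes summed to 27.1 ± 4.04 CPM in neo, 27.3 ± 2.02 CPM in KO and 27.2 CPM in WT. The C-type genes summed to 88.5 ± 9.87 CPM in neo, 86.7 ± 4.71 CPM in KO and 78.0 CPM in WT. Neo and KO overlapped in every one of these sums. The ratio of neo to KO was 0.971 for beta and 0.994 for Pcdhgb genes, but 1.08 and 1.09 when deposited TPM was summed. In whole tissue, fewer cells of a type and less RNA per cell cannot be told apart.

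**Figure D3:**
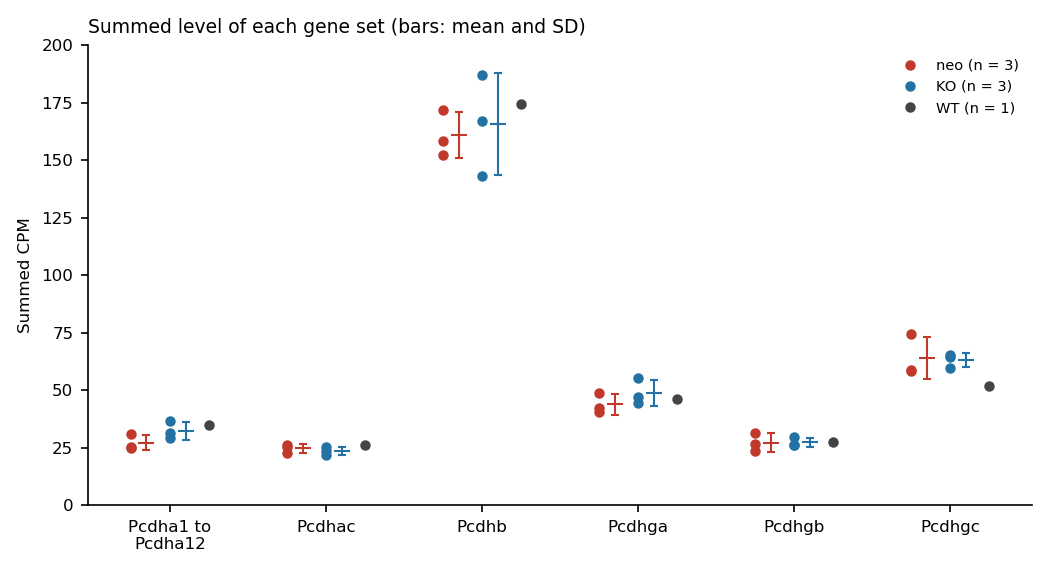
Summed CPM of each gene set in each library (points), with the mean and SD of the 3 neo and of the 3 KO libraries beside them. The beta cluster is highest, at 143 to 187 CPM, and neo and KO overlap in every set.

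No member passed in this comparison. edgeR's quasi-likelihood test with Benjamini-Hochberg adjustment over all genes called 0 of the 56 members tested, where 0.017% of all genes tested were called (3 of 17638). Pcdha4 and Pcdha8 were below the count filter. DESeq2 also called 0 members, where it called 0.539% of all genes. An adjusted p under 0.05 stood beside 0 members in the authors' deposited table, and beside 0.429% of its genes. At an unadjusted p under 0.05 in edgeR, 2 members were lower and 0 higher in neo, while 9.32% of all genes passed in either direction and 4.72% were lower.

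The downstream Pcdha11 entry was 0.462, 0.351 and 0.332 CPM per kb in neo replicates 1 to 3, and 0.758, 0.815 and 0.444 in KO replicates 1 to 3, against 0.449 in WT. KO replicate 3 fell within the range of neo. The log2 difference was -0.80 (SE 0.30, unadjusted p = 0.0259, adjusted p = 0.502, edgeR). Pcdhga3 was 2.11, 1.56 and 1.59 CPM per kb in neo and 3.02, 2.39 and 2.10 in KO, against 1.89 in WT. Its groups met at neo replicate 1 and KO replicate 3, and its log2 difference was -0.50 (SE 0.22, unadjusted p = 0.0481, adjusted p = 0.535, edgeR). Neither passed.

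Of the 56 members tested, 40 (71.4%) had a log2 difference below 0, as did 50.4% of all genes. The median was -0.12 over members and -0.00 over all genes. By set, the medians were -0.24 for Pcdha1 to Pcdha12, -0.12 for Pcdhb, -0.18 for Pcdhga, -0.07 for Pcdhgb and 0.05 for the C-type genes, of which 4 of 5 were above 0. The Pcdhgb median was 0.04 without neo replicate 2. On TPM the median of members was -0.02 and that of all genes 0.10 at a pseudocount of 0.1, so members minus all genes came to -0.11 there and to -0.12 in the counts. On that scale 29 of 54 members were below 0, and 28 of 54 at a pseudocount of 1. Without neo replicate 1 the median of members was -0.23, 45 members were below 0 (48.7% of all genes were), and 4 members were lower and 0 higher at an unadjusted p under 0.05, against 7.83% of all genes lower. These 4 were Pcdha9, Pcdhb7, Pcdhga3 and the downstream Pcdha11 entry. The median of members came to -0.20 when KO replicate 3 was left out, with 42 members below 0. It came to -0.06 when KO replicate 1 was left out, with 34 below 0. In the fit that lacks neo replicate 2 the median was -0.04, with 32 below 0, so single libraries moved its size and the count below 0.

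Summed markers of some cell types did not overlap between neo and KO, while those of others did. Of all single genes tested, 7.59% lay wholly above KO in neo and 7.98% wholly below. Mature olfactory neuron markers (12 genes) summed to 3912 to 4410 CPM in neo and 3428 to 3818 in KO, and olfactory precursor markers (8 genes) to 549.9 to 636 CPM in neo and 458 to 535 in KO. Immature neuron markers (10 genes), at 2590 to 3246 CPM in neo and 3123 to 3307 in KO, overlapped. Bone and cartilage markers (10 genes) summed to 520 to 1383 CPM in neo and 1915 to 3405 in KO, and fibroblast markers (7 genes) to 4164 to 7154 CPM in neo and 9059 to 13295 in KO. Macrophage markers (8 genes) summed to 132 to 178 CPM in neo and 125 to 126 in KO. Sustentacular, horizontal basal, ensheathing glia, endothelial, respiratory cilia and skeletal muscle markers overlapped as well. Log2 differences were above 0 for 12 of 12 mature neuron, 6 of 8 precursor and 7 of 8 macrophage markers. They were above 0 for 3 of 10 bone and cartilage and 1 of 7 fibroblast markers. No marker of any list was at 0 in all libraries. The part of cell makeup in the protocadherin differences was not tested.

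Within the sets the members were spread on both sides of 0. Besides the downstream Pcdha11 entry, the alpha gene with the smallest p was Pcdha3, with 1.52, 1.14 and 1.53 CPM per kb in neo and 2.08, 1.54 and 2.26 in KO. Every neo library lay below every KO library, though the gap was narrow and the log2 difference of -0.48 did not pass (adjusted p = 0.557, edgeR). Pcdha1 (0.29) and the upstream Pcdha11 entry (0.31) had log2 differences on the other side of 0. That of Pcdha1 was 0.07 without neo replicate 1. The upstream entry stood at 1.40, 0.598 and 0.665 CPM per kb in neo and 0.662, 0.815 and 0.708 in KO, so its positive sign rests on neo replicate 1, and without that library the log2 difference was -0.20.

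Among beta genes, Pcdhb14 was 0.632, 0.619 and 0.650 CPM per kb in neo and 0.782, 0.826 and 0.712 in KO, with no overlap (log2 difference -0.29, adjusted p = 0.644, edgeR). Pcdhb8 had a log2 difference of -0.50. Pcdhb21 had 0.07, and -0.14 without neo replicate 1. Pcdhb1 had 0.14 (SE 0.15, adjusted p = 0.826, edgeR). Among gamma genes, Pcdhgb6 was 3.32, 3.15 and 3.16 CPM per kb in neo and 3.06, 2.55 and 2.72 in KO, the only member with every neo library above every KO library (log2 difference 0.21, adjusted p = 0.720, edgeR). Pcdhga5 (-0.38), Pcdhgb7 (-0.26) and Pcdhgb2 (-0.13) were lower in neo in value, and Pcdhga11 (0.14), Pcdhga12 (0.17) and Pcdhgb4 (0.18) higher. Without neo replicate 1 these last values were 0.03 for Pcdhga11, -0.12 for Pcdhga12 and 0.02 for Pcdhgb4. In all, 1 member lay wholly above KO and 4 wholly below it (Pcdha3, Pcdhb14, Pcdhga1 and Pcdhga2), which is 1.79% and 7.14% of those tested, against 7.59% and 7.98% of all genes.

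**Figure D4:**
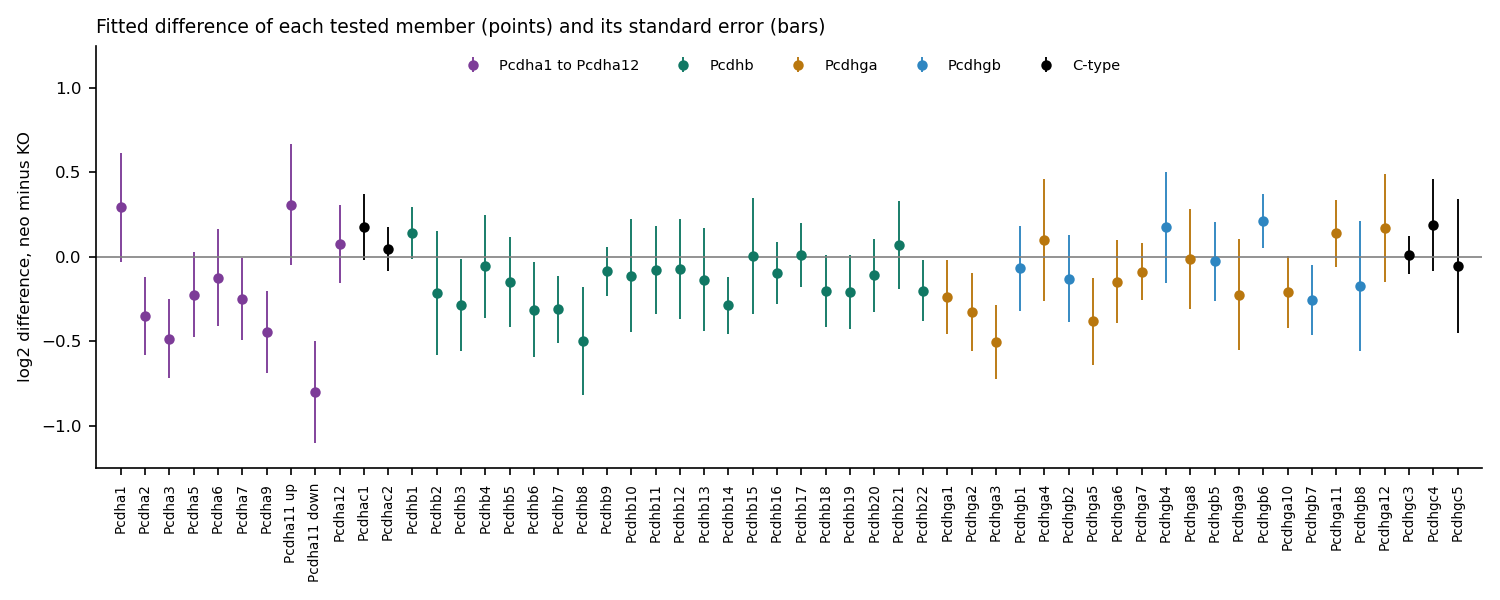
Fitted log2 difference of neo minus KO (points) with its standard error (bars) for the 56 members tested, in genomic order and coloured by set. Of the points, 40 lie below 0, the lowest being the downstream Pcdha11 entry at -0.80, and none passed the test.

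No C-type gene passed between neo and KO. The log2 differences were 0.18 (SE 0.20) for Pcdhac1, 0.05 (SE 0.13) for Pcdhac2, 0.01 (SE 0.11) for Pcdhgc3, 0.19 (SE 0.27) for Pcdhgc4 and -0.05 (SE 0.40) for Pcdhgc5. For Pcdhgc4 the sign turned on TPM, to -0.11. The C-type share of alpha cluster counts was 45.8, 47.4 and 49.9% in neo replicates 1 to 3 and 39.1, 44.8 and 42.8% in KO replicates 1 to 3, against 42.8% in WT. Every neo library was above every KO library and WT. The corresponding share of the gamma cluster was 42.3, 47.8 and 52.0% in neo and 43.1, 47.3 and 45.8% in KO, against 41.4% in WT, and overlapped. Pcdhgc3 made up 93.5 to 94.8% of the gamma C-type counts in neo and 94.5 to 94.8% in KO. The C-type share of the alpha cluster was the only share computed in which neo and KO did not overlap. Of all single genes tested, 7.59% had every neo library above every KO library. All these shares of counts are descriptions without a test, since the members were chosen with results of these data known.

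**Figure D5:**
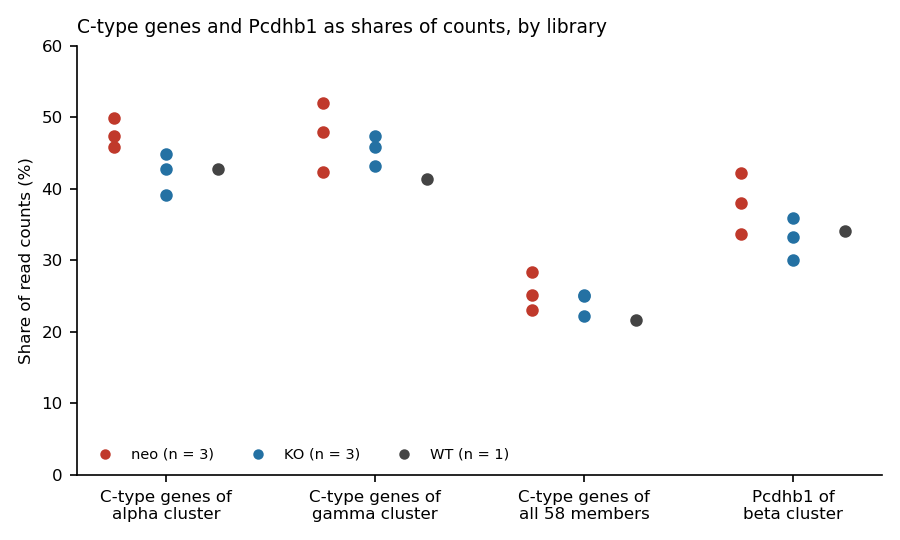
Share of read counts, in percent, taken by the C-type genes in the alpha cluster, the gamma cluster and all members, and by Pcdhb1 in the beta cluster. Points are single libraries, and for the alpha cluster the 3 neo libraries (45.8 to 49.9%) lie above the 3 KO libraries (39.1 to 44.8%).

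Replicates of a group differed among themselves by somewhat more than counting error. The median coefficient of variation of the 56 members was 16.1% in neo and 17.7% in KO, where the counts alone give a median of 13.4% and 13.2%. For 13661 other genes with counts in the same range the medians were 14.6% in neo and 13.7% in KO, with 7.23% from counting in both. Of the members, 36 in neo and 41 in KO varied by more than counting alone gives.

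Loss of Amigo1 was examined by comparing KO with WT. edgeR called 0 of 56 members, where 0.00523% of all genes tested were called (1 of 19123), and 0 members had an unadjusted p under 0.05, against 0.727% of all genes. DESeq2 also called 0, with 0 at an unadjusted p under 0.05. The median log2 difference was -0.01 over members and 0.01 over all genes, with 29 of 56 members below 0, as were 48.3% of all genes. Pcdhgc3 was higher in all 3 KO libraries than in WT, with a log2 difference of 0.28 (SE 0.16, adjusted p = 1, edgeR), and the downstream Pcdha11 entry had 0.58. On the other side were Pcdhgb1, at 1.45, 1.33 and 1.90 CPM per kb in KO and 2.35 in WT (log2 difference -0.59), and Pcdhb15, at 0.416, 0.517 and 0.631 in KO and 0.887 in WT (-0.76). The WT library was Xist-positive and every KO library Ddx3y-positive, so sex and genotype cannot be told apart here.

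In the comparison of neo with WT, 0 of 56 members were called, where 0.0105% of all genes tested were called (2 of 19123). At an unadjusted p under 0.05, 1 member was lower, Pcdha2, while 2.97% of all genes passed in either direction and 1.72% were lower. DESeq2 called 0 members as well, with 1 at an unadjusted p under 0.05. Pcdha2 was 1.75, 1.63 and 1.14 CPM per kb in neo and 2.70 in WT, and KO stood at 2.20, 1.93 and 1.68. All neo and KO libraries were below WT, and neo and KO overlapped. Its log2 difference was -0.84 (SE 0.30, unadjusted p = 0.0225, adjusted p = 1, edgeR). Pcdha7 had -0.68, while Pcdhgb6 had 0.44 and Pcdhgc3 0.28. Of members, 39 of 56 were below 0, as were 49.0% of all genes, and the median was -0.16, against 0.01 for all genes. Without neo replicate 1 that median was -0.25, with 4 members lower at an unadjusted p under 0.05 (Pcdha2, Pcdhb4, Pcdhb7 and Pcdhgb1), against 4.58% of all genes lower, and without neo replicate 2 it was -0.08. All 3 neo libraries lay below WT for 25 members and above it for 7 (12.5% of the 56 tested), where all genes tested gave 22.1% and 21.8%. The 25 members include Pcdha8, which was not tested, so their share of the 56 tested, 44.6%, is slightly too high. KO libraries lay below WT for 18 members (32.1%) and above it for 7 (12.5%), where all genes gave 20.9% and 19.5%. Both comparisons share the 1 WT library, so its own deviation enters each of them.

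Other genes of the same biology were read from lists. Of 12 protocadherins outside the clusters 0 were called by edgeR in neo against KO, while Pcdh9 and Pcdh7, which encode delta protocadherins, were higher at an unadjusted p under 0.05. Pcdh9 was 20.4, 23.6 and 22.6 CPM in neo and 18.7, 17.2 and 15.4 in KO (log2 difference 0.38, unadjusted p = 0.0150, adjusted p = 0.496, edgeR). Pcdh7 had a log2 difference of 0.32 (adjusted p = 0.505, edgeR). The median of the list was 0.01, and 6 of 12 were above 0. Among 14 genes of CTCF, cohesin and their loading factors, none was called and none had an unadjusted p under 0.05, with a median of -0.02. Those with the smallest p were the cohesin regulator gene Pds5a (0.15) and the zinc finger gene Zfp143 (-0.21).

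Of 17 genes for DNA methylation and silencing, none was called, and Uhrf1, which brings the maintenance methyltransferase Dnmt1 to DNA, was the only one with an unadjusted p under 0.05. Uhrf1 was 40.8 ± 2.39 CPM in neo and 31.0 ± 6.52 CPM in KO (SD, n = 3 each, log2 difference 0.40, adjusted p = 0.505, edgeR), and Dnmt1 itself had 0.21. Of 23 genes for binding partners, processing and signalling, none was called. Prkcd, a protein kinase C gene, had a log2 difference of 0.19 (adjusted p = 0.572, edgeR).

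The clusters were also set against the genes around them. None of 16 neighbouring genes tested was called or had an unadjusted p under 0.05. Their median was -0.05, and 3 of 16 were above 0, as were 16 of 56 members, so an excess below 0 was not particular to the clusters. Zmat2 upstream of the alpha cluster had a log2 difference of 0.03, and Diaph1 downstream of the gamma cluster had -0.02. Without neo replicate 1 these were -0.01 for Zmat2 and 0.06 for Diaph1. Taf7, a gene for a general transcription factor subunit between the beta and gamma clusters, was 24.8, 23.6 and 23.1 CPM in neo and 18.9, 21.4 and 21.8 in KO (log2 difference 0.20, adjusted p = 0.628, edgeR). Pcdh1, a protocadherin gene further downstream, had -0.21. Of 12 antisense genes inside the clusters, 3 had enough counts to be tested and none was called. Gm26672 was 1.58, 0.837 and 0.865 CPM in neo and 0.735, 0.536 and 0.663 in KO, without overlap (log2 difference 0.79, adjusted p = 0.555, edgeR). Gm10544 overlapped, with a log2 difference of 0.09. Of all genes tested, 7.59% lay wholly above KO in neo. The deepest was BC037039, which overlaps the start of Pcdhgc3 on the other strand. BC037039 had 134, 96 and 106 counts in neo, 66, 106 and 108 in KO and 84 in WT (log2 difference 0.23, adjusted p = 0.783, edgeR). Reads were counted by strand, per the labels' name for the table.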

How the data were processed

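RNA-seq of 7 olfactory epithelium libraries was used. The authors trimmed reads with Trimmomatic 0.35 and used STAR 2.5.1b, RSEM, DESeq2 1.18.1 and the build GRCm38, per the submitters' processing notes. The deposited gene counts are whole, stranded read counts per the labels, with 14.5 to 19.6% of reads multimapping and left out of genes. The deposited TPM values come from RSEM per the file headers. The deposited log2 fold changes (KO over neo) and p-values come from the authors' DESeq2 fit per the file headers.

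Members and lists were chosen with earlier results of these data known. Levels are CPM per kb of exon held by 1 gene on the strand (at least 1000 bases). edgeR 4.0.16 (R 4.3.3) fitted TMM-scaled counts with a quasi-likelihood model, for genes passing a filter at 10 counts, with Benjamini-Hochberg adjustment at 0.05. Neo and KO were fitted alone, and comparisons with WT used all 7 libraries, so that the lone WT sample is assumed to vary like the others. DESeq2 1.42.0, limma 3.58.1 on log2(TPM + 0.1) and log2(TPM + 1), other filters and scalings, each library left out and a replicate block were alternatives. The fits were tested on simulated data. The floor of 3 counts for a value of 0 covers counting error only. SDs are taken over libraries, and SEs come from the edgeR fit, which includes the spread between libraries.

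Named were the C-type genes, the 3 highest and 2 lowest members of each set, the 2 of smallest p per direction and set in neo against KO and per direction in each comparison with WT, and from each list of other genes the 2 of smallest p. The antisense genes BC037039, Gm26672 and Gm10544 fall outside this rule and were chosen after their values were seen. So were the members Pcdha9 in the fit without neo replicate 1, Pcdhb4, Pcdhb7, Pcdhga1 and Pcdhga2. A named gene of the other lists is not reported here.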

Additional observations from a re-analysis of the deposited data

How the results depend on the processing

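Members called stayed at 0 in all 3 comparisons under every alternative run. The lowest adjusted p of any member over the alternatives ranged from 0.283 to 0.902 for neo against KO, from 0.553 to 1 for neo against WT, and stayed at 1 for KO against WT. Genes called in neo against KO numbered 3 in edgeR, 98 in DESeq2, 40 without a count filter, 17 without neo replicate 1, and 1 with limma on either TPM scale. In KO against WT they numbered 1, against 16 with limma on log2(TPM + 1) and 6 when KO and WT were fitted alone. In neo against WT they numbered 2, against 17 with that limma fit, 7 without a filter and 6 without neo replicate 1. The replicate block also called 0 members, with 1 gene called, a median of -0.11 and 42 members below 0. Deviations of same-numbered neo and KO libraries correlated at -0.144, -0.0485 and 0.187, so the numbers do not pair the samples. The median of members in KO against WT, -0.01, was -0.12 without KO replicate 1 and 0.04 without KO replicate 3. No paired analysis was possible for WT because WT has 1 library.

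The ratio of the C-type median to that of the other members, 1.58, was 1.17 per whole exon length, 6.34 on TPM and 0.310 as a ratio of sums, which is no reversal since 5 genes are set against 52. As a ratio of means per gene it was 3.22, and without Pcdhgc3 it was 1.22, both alternatives chosen after seeing the data. Of the log2 differences of named genes, 12 results changed sign in 21 fits and 577 fits kept sign and call. With single libraries left out, the log2 difference of neo minus KO ranged from -0.20 to 0.53 for the upstream Pcdha11 entry, from -0.016 to 0.13 for Pcdhac2, from -0.012 to 0.30 for Pcdhb1, from -0.14 to 0.21 for Pcdhb21, from -0.38 to 0.038 for Pcdhgb2, from -0.062 to 0.52 for Pcdhgb4, and from -0.12 to 0.35 for Pcdhga12. It ranged from -0.11 to 0.076 for Pcdhgc3, from -0.070 to 0.36 for Pcdhgc4, from -0.27 to 0.16 for Pcdhgc5, from -0.089 to 0.060 for Diaph1 and from -0.0099 to 0.066 for Zmat2. On TPM it was -0.11 (pseudocount 0.1) and -0.091 (pseudocount 1) for Pcdhgc4, and 0.054 and 0.052 on the same scales for Diaph1. The members had 5298 to 8643 counts per library in all, which limits the precision of the lowest of them.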
